A study of Homo sapiens with 12 samples.

Results

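The genes described here are TFAM and 3 other nuclear genes of the machinery that copies and transcribes mitochondrial DNA (TFB2M, POLRMT and TWNK), together with 6 mRNAs encoded by the mitochondrial genome itself (MT-ND1, MT-ND5, MT-CO1, MT-CO2, MT-CYB and MT-ATP6). They are 10 of 60617 genes listed and of 21581 genes tested, and all 10 passed the filter on low counts. They were chosen from these same libraries, because TFAM mRNA moved in opposite directions with the 2 siRNA combinations while mitochondrial mRNAs stayed. Their values are therefore given as a description, without a test, and tests are kept for genes outside this set.

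The libraries came from A549, an established human lung adenocarcinoma line, harvested 24 hours after transfection. The groups were siYAP/TAZ#1 and siYAP/TAZ#2, each a different siRNA combination against YAP and TAZ (the transcriptional coactivators at the end of the Hippo pathway, encoded by YAP1 and WWTR1), and siCo, labelled as a non-targeting control siRNA. Each group had 4 libraries of total RNA, and all 3 groups shared the cell line, medium and harvest time. Levels are CPM (estimated counts scaled to a library of 1e6) after TMM scaling, as mean ± SD over n = 4 libraries, and changes are log2 values ± standard error from edgeR.

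Human mitochondrial DNA is a circular genome transcribed from both strands as long precursors, which are cut into rRNAs, tRNAs and mRNAs for core subunits of the respiratory chain and ATP synthase. Transcription needs TFAM, which bends promoter DNA and also packages the genome into nucleoids, TFB2M, which helps melt the promoter, and the RNA polymerase POLRMT. POLRMT also makes primers for replication, in which the helicase TWNK (Twinkle) unwinds the DNA.

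Both targets were lower in every treated library. YAP1 stood at 15.5% with siYAP/TAZ#1 and 14.3% with siYAP/TAZ#2 of its siCo level, and WWTR1 at 13.7% with siYAP/TAZ#1 and 13.5% with siYAP/TAZ#2. Library totals ran from 29.6 to 38.3 M estimated counts (M, 1e6). The keratins KRT7, KRT8 and KRT18 were abundant, and all 6 epithelial markers lay above 0.5 CPM. Of 8 alveolar type II markers, 6 lay under 0.5 CPM in every group, SFTPC and NKX2-1 among them. The type II marker ABCA3 was well expressed, at a mean of 160 CPM with siYAP/TAZ#1, 163 CPM with siYAP/TAZ#2 and 126 CPM with siCo. LAMP3 averaged 0.63 CPM with siYAP/TAZ#1, 0.73 CPM with siYAP/TAZ#2 and 0.71 CPM with siCo. Of 9 markers of other cells, only COL1A1 and PECAM1 reached a mean of 0.5 CPM in any group. COL1A1 was well expressed, at a mean of 153 CPM with siYAP/TAZ#1, 117 CPM with siYAP/TAZ#2 and 110 CPM with siCo. PECAM1 averaged 0.63 CPM with siYAP/TAZ#1, 0.69 CPM with siYAP/TAZ#2 and 0.39 CPM with siCo. The library siYAP/TAZ#2 replicate 1 stood apart for several of the genes below, so values that turn on it are also given without it. In bulk RNA, a shift in the mix of cells and a change of RNA per cell cannot be told apart.

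Of the 4 nuclear genes, 3 have an entry in the RefSeq promoter table (GRCh38.p14), all but TWNK. The 250 bases before each RefSeq start are shown because TFAM and its partners are known targets of the factors NRF1 and GABP, yet their mRNAs moved differently. Capitals mark matches on either strand to GCGC and GCGC set 2 bases of any kind apart (NRF1), CGGAAG (GABP) and GGAATG (the TEAD factors that YAP and TAZ bind). The windows are chr10:58385160-58385409 on the plus strand for TFAM, chr1:246566262-246566511 on the minus strand for TFB2M and chr19:633538-633787 on the minus strand for POLRMT.
TFAM: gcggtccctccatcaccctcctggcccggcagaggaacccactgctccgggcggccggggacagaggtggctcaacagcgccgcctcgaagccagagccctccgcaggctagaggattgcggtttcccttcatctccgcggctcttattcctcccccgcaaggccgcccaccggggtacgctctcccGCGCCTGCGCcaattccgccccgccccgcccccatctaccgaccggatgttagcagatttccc
TFB2M: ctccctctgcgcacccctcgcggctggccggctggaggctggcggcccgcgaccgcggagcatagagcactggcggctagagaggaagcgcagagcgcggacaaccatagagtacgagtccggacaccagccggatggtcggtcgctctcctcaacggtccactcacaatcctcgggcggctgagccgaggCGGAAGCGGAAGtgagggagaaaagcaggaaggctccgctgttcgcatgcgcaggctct
POLRMT: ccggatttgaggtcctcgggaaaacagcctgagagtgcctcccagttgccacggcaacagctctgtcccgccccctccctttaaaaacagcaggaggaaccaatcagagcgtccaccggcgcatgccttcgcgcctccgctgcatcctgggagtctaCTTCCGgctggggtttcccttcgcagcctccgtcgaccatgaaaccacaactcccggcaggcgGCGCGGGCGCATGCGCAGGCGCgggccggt
TFAM held 1 NRF1 match, at bases 63 to 54 before the start. TFB2M held 2 adjoining GABP matches, at bases 59 to 48 before the start, and POLRMT 3 overlapping NRF1 matches, at bases 30 to 9, with 1 GABP match on the other strand, at bases 93 to 88. No match to the TEAD letters was found in these 3 windows. Among 35116 promoter windows of the same length, 7.16% held the NRF1 letters, 16.5% the GABP letters and 11.9% the TEAD letters, on either strand. These RefSeq starts differ from the GENCODE v29 gene spans given below. The TFAM window lies wholly inside its GENCODE span, which starts at 58385022. On the minus strand the GENCODE spans reach 246566324 for TFB2M and 633604 for POLRMT, and so cover the TFB2M matches and the POLRMT NRF1 matches. A match describes letters only and shows no binding.

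TFAM mRNA (ENSG00000108064; GENCODE v29 on GRCh38, chromosome 10, 58385022 to 58399221, plus strand) was lower with one combination and higher with the other. It measured 10.3, 9.49, 10.8 and 10.1 CPM in siYAP/TAZ#1 libraries, 33.3, 41.5, 46.2 and 39.8 CPM in siYAP/TAZ#2 libraries and 21.9, 21.01, 18.8 and 18.7 CPM in siCo libraries. All siYAP/TAZ#1 libraries lay below all siCo libraries and all siYAP/TAZ#2 libraries above them, with no overlap between any groups. Of all genes tested, 38.7% did not overlap between siYAP/TAZ#1 and siCo, 34.6% between siYAP/TAZ#2 and siCo and 18.2% between the combinations. The means were 10.2 ± 0.531 CPM with siYAP/TAZ#1, 40.2 ± 5.30 CPM with siYAP/TAZ#2 and 20.1 ± 1.601 CPM with siCo (n = 4 each), so that siYAP/TAZ#1 stood at 50.5% and siYAP/TAZ#2 at 199.8% of siCo. The log2 change was -0.99 ± 0.096 with siYAP/TAZ#1 and 1.00 ± 0.091 with siYAP/TAZ#2. Between the combinations it was -1.98 ± 0.095, siYAP/TAZ#1 over siYAP/TAZ#2. In every processing alternative tried, TFAM kept its direction, from -1.02 to -0.66 with siYAP/TAZ#1 and from 0.92 to 1.39 with siYAP/TAZ#2.

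Among all genes tested, 149 (0.690%) were called in opposite directions with the 2 combinations at an adjusted p under 0.05. Of these, 68 were lower with siYAP/TAZ#1 and higher with siYAP/TAZ#2, as TFAM was, and 81 were the converse. TFAM was chosen for this movement, so its place among the 149 is no result. The genes nearest to it in the smaller of the 2 absolute changes were FAM3C (1.17 with siYAP/TAZ#1, -0.97 with siYAP/TAZ#2) and GALNT12 (-1.06 with siYAP/TAZ#1, 0.94 with siYAP/TAZ#2), both named after their values were seen. TFAM carried 337 to 1718 estimated counts per library. Of the 31-base words in its transcripts, 2.70% occur in transcripts of another gene.

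TFB2M, the partner that melts the promoter (chromosome 1, 246540560 to 246566324, minus strand), was lower with both combinations. It measured 15.0, 13.97, 14.9 and 14.7 CPM in siYAP/TAZ#1 libraries, 14.1, 15.0, 16.7 and 14.8 CPM in siYAP/TAZ#2 libraries and 19.5, 21.9, 19.1 and 20.6 CPM in siCo libraries. Neither treated group overlapped siCo, and the treated groups overlapped each other. The log2 change was -0.47 ± 0.072 with siYAP/TAZ#1 and -0.42 ± 0.072 with siYAP/TAZ#2.

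TWNK, the helicase (chromosome 10, 100987367 to 100994401, plus strand), measured 26.5, 27.2, 26.2 and 26.5 CPM in siYAP/TAZ#1 libraries, 24.1, 23.3, 25.5 and 21.3 CPM in siYAP/TAZ#2 libraries and 36.3, 37.5, 39.98 and 37.9 CPM in siCo libraries. Every treated library lay below every siCo library, and siYAP/TAZ#2 lay lowest without overlapping siYAP/TAZ#1. The log2 change was -0.51 ± 0.064 with siYAP/TAZ#1, -0.69 ± 0.064 with siYAP/TAZ#2 and 0.18 ± 0.064 between the combinations.

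POLRMT, the polymerase (chromosome 19, 617224 to 633604, minus strand), measured 152, 177.4, 156 and 143 CPM in siYAP/TAZ#1 libraries, 221, 139, 153 and 152 CPM in siYAP/TAZ#2 libraries and 204, 182, 212 and 177.5 CPM in siCo libraries. siYAP/TAZ#1 lay just below siCo, and siYAP/TAZ#2 overlapped it through replicate 1 alone, the highest of all 12 libraries. The log2 change was -0.31 ± 0.119 with siYAP/TAZ#1 and -0.22 ± 0.119 with siYAP/TAZ#2, and -0.38 with siYAP/TAZ#2 without that replicate. POLRMT shares 35.6% of its 31-base words with other genes, most with the pseudogene POLRMTP1, so its level is less certain than that of TFAM.

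Scaling bears on these 3 genes. In log2(TPM + 1) without further scaling, POLRMT changed by 0.06 with siYAP/TAZ#1 and 0.16 with siYAP/TAZ#2, TFB2M by -0.09 with siYAP/TAZ#1 and 0.02 with siYAP/TAZ#2, and TWNK by -0.13 with siYAP/TAZ#1 and -0.14 with siYAP/TAZ#2. The median of all genes was then 0.19 with siYAP/TAZ#1 and 0.24 with siYAP/TAZ#2, above all 3 genes. With library size alone all 3 stayed below siCo, TWNK at -0.33 with siYAP/TAZ#1 and -0.50 with siYAP/TAZ#2. A pair of short transcripts, MIR3648-1 and MIR3648-2, took 9.60 to 39.4% of all TPM in a library, which moves every other TPM value.

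**Figure D1:**
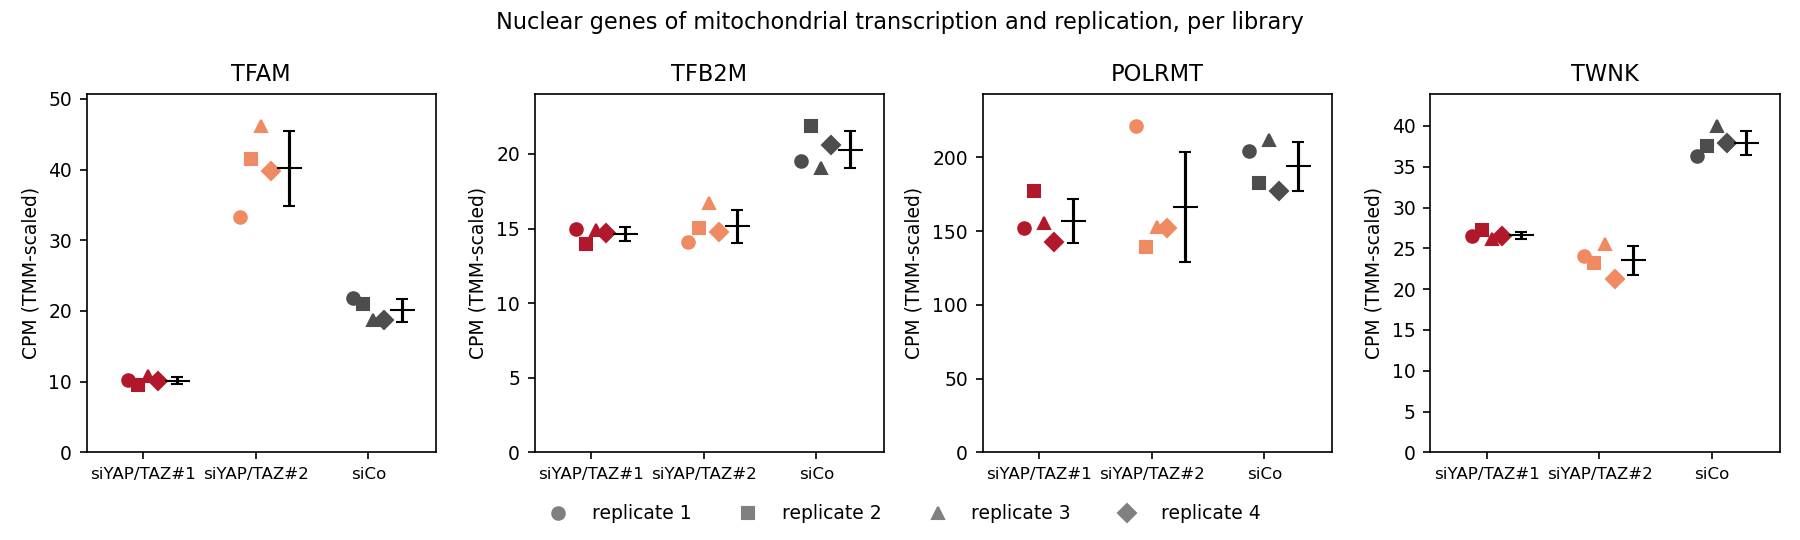
CPM after TMM scaling (y axis, from 0) of TFAM, TFB2M, POLRMT and TWNK in the 12 libraries, 1 point per library with a shape per replicate number, and the mean with its SD as a bar beside the points. TFAM lies near 10.2 CPM with siYAP/TAZ#1, 40.2 CPM with siYAP/TAZ#2 and 20.1 CPM with siCo, while TFB2M and TWNK lie below siCo in all treated libraries.

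The 6 mitochondrial mRNAs overlapped between all groups, in each pair of groups. They encode complex I subunits (MT-ND1, MT-ND5), the complex III cytochrome b (MT-CYB), complex IV subunits (MT-CO1, MT-CO2) and an ATP synthase subunit (MT-ATP6). MT-CO1, the most abundant (chromosome M, 5904 to 7445, plus strand), measured 6794, 6250, 6353 and 7205 CPM in siYAP/TAZ#1 libraries, 5468, 7483, 7382 and 8198 CPM in siYAP/TAZ#2 libraries and 6733, 6581, 6241 and 7116 CPM in siCo libraries. The siYAP/TAZ#2 libraries spread furthest, with replicate 1 the lowest and replicate 4 the highest of all 12. The log2 change of MT-CO1 was -0.00 ± 0.097 with siYAP/TAZ#1 and 0.10 ± 0.097 with siYAP/TAZ#2. Scaled by library size alone it was 0.17 with siYAP/TAZ#1 and 0.29 with siYAP/TAZ#2, where the median of all genes was 0.20 and 0.21. In log2(TPM + 1) it was 0.36 with siYAP/TAZ#1 and 0.52 with siYAP/TAZ#2, where that median was 0.19 and 0.24. Its place near siCo thus depends on scaling, which also moved the median of all genes.

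MT-CO2 (7586 to 8269) measured 398, 328, 420 and 413 CPM in siYAP/TAZ#1 libraries, 297, 350, 384 and 526 CPM in siYAP/TAZ#2 libraries and 338, 305, 324 and 367 CPM in siCo libraries. Of its 4 siYAP/TAZ#1 libraries, 3 lay above all siCo libraries, and siYAP/TAZ#2 spanned the siCo range on both sides. Its log2 change was 0.22 ± 0.132 with siYAP/TAZ#1 and 0.22 ± 0.132 with siYAP/TAZ#2.

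MT-CYB (14747 to 15887) measured 380, 318, 375 and 419 CPM in siYAP/TAZ#1 libraries, 318, 420, 463 and 519 CPM in siYAP/TAZ#2 libraries and 386, 350, 337 and 381 CPM in siCo libraries. All siYAP/TAZ#2 libraries but replicate 1 exceeded siCo. Its log2 change was 0.04 ± 0.118 with siYAP/TAZ#1 and 0.24 ± 0.118 with siYAP/TAZ#2, and 0.37 with siYAP/TAZ#2 without replicate 1.

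The other members gave the same picture of overlap. MT-ATP6 (8527 to 9207) averaged 177 ± 29.3 CPM with siYAP/TAZ#1, 177 ± 38.1 CPM with siYAP/TAZ#2 and 156 ± 18.2 CPM with siCo. MT-ND1 (3307 to 4262) averaged 247 ± 29.2 CPM with siYAP/TAZ#1, 251 ± 40.4 CPM with siYAP/TAZ#2 and 238 ± 12.4 CPM with siCo. MT-ND5 (12337 to 14148) averaged 158 ± 22.95 CPM with siYAP/TAZ#1, 176 ± 25.1 CPM with siYAP/TAZ#2 and 157 ± 16.5 CPM with siCo. The log2 changes of these 3 ran from 0.01 to 0.18 with siYAP/TAZ#1 and from 0.07 to 0.18 with siYAP/TAZ#2, each with a standard error of 0.102 to 0.14.

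Of the 10 genes, 3 were called lower and 0 higher with siYAP/TAZ#1 against siCo, where 18.5% of all genes tested were called lower and 16.4% higher. With siYAP/TAZ#2 against siCo, 2 were called lower and 1 higher, where 19.2% of all genes were called lower and 19.0% higher. Between the combinations 1 was called lower in siYAP/TAZ#1, beside 8.20% of all genes lower and 6.92% higher. Without siYAP/TAZ#2 replicate 1, 4 of the 10 were called lower and 0 higher with siYAP/TAZ#1. With siYAP/TAZ#2, 3 were then lower and 4 higher, mitochondrial mRNAs among those higher, and between the combinations 3 were lower and 1 higher. Calls over all 22166 genes of that fit also rose. They were 4950 lower and 4224 higher with siYAP/TAZ#1, 4893 lower and 4614 higher with siYAP/TAZ#2, and 2840 lower and 2287 higher between the combinations. These contrasts chose the genes, so nothing is read from the counts.

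**Figure D2:**
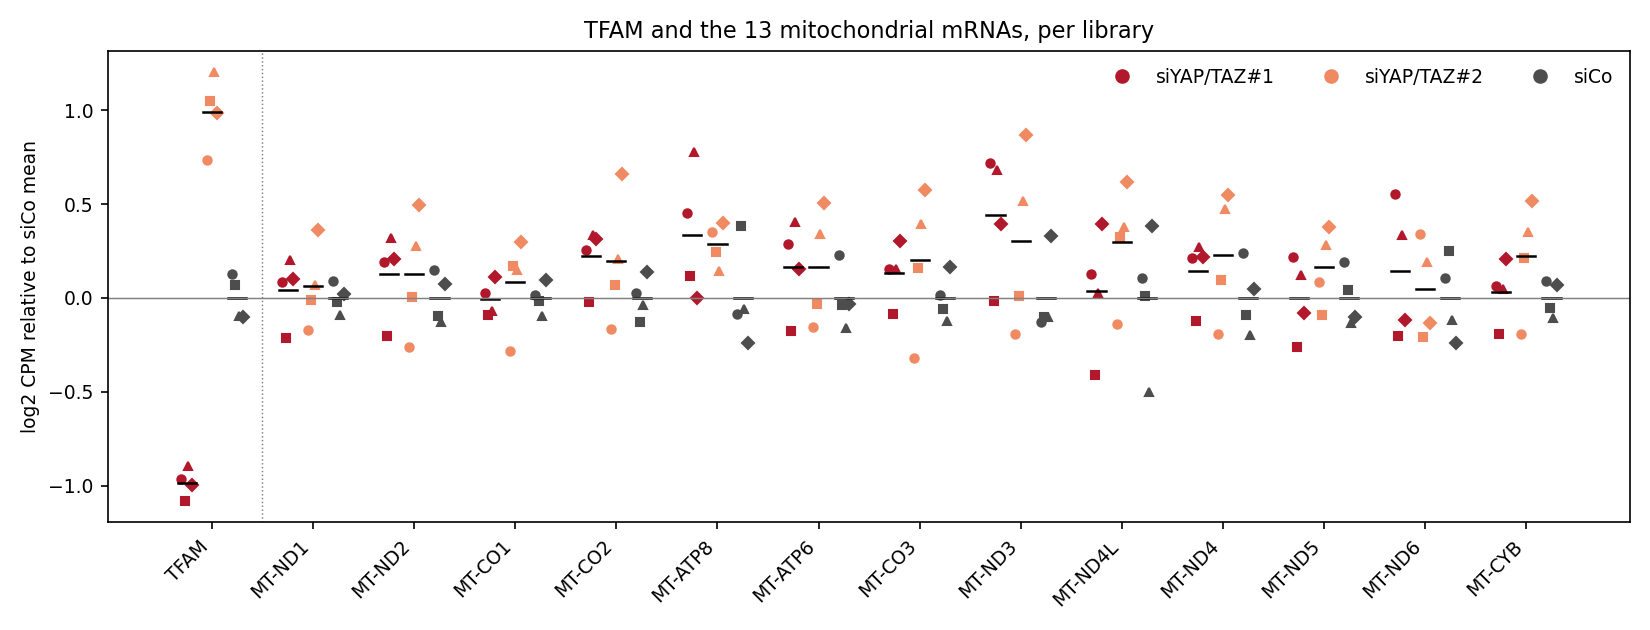
Log2 CPM relative to the siCo mean (y axis) of TFAM and the 13 mitochondrial mRNAs in genome order, 1 point per library, with a shape per replicate number as in the plot of the nuclear genes and black bars for group means. TFAM separates into 3 groups without overlap, while in each of the 6 chosen mitochondrial mRNAs the groups overlap.

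Summed over all 13 mitochondrial mRNAs, the level was 9465 ± 678 CPM with siYAP/TAZ#1, 10116 ± 1757 CPM with siYAP/TAZ#2 and 9251 ± 538 CPM with siCo. By library the sum ran from 8594 to 10203 CPM with siYAP/TAZ#1, from 7714 to 11913 CPM with siYAP/TAZ#2 and from 8605 to 9842 CPM with siCo. The siYAP/TAZ#2 libraries thus lay on both sides of siCo, with replicate 1 at the bottom. The log2 change of the sum was 0.03 with siYAP/TAZ#1 and 0.11 with siYAP/TAZ#2. Without siYAP/TAZ#2 replicate 1 the second value was 0.24, and without siYAP/TAZ#2 replicate 4 it was 0.03. MT-CO1 gave 70.3 ± 1.98% of the estimated counts of the 13 mRNAs with siYAP/TAZ#1, 70.6 ± 1.91% with siYAP/TAZ#2 and 72.1 ± 0.830% with siCo.

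On the TPM scale, which divides by transcript length, the order of the 10 genes within a library was nearly fixed. MT-CO1 was first and MT-CO2 second in all 12 libraries, MT-CYB and MT-ATP6 shared ranks 3 and 4, MT-ND1 was rank 5, MT-ND5 rank 6 and POLRMT rank 7. TFAM, TFB2M and TWNK held ranks 8 to 10 in an order that changed with the group. The ratio of TFAM TPM to TFB2M TPM, in which library scaling cancels, was 0.633 ± 0.0235 with siYAP/TAZ#1, 2.63 ± 0.154 with siYAP/TAZ#2 and 1.01 ± 0.119 with siCo. The ranges of this ratio did not overlap, at 0.598 to 0.649 with siYAP/TAZ#1, 2.41 to 2.77 with siYAP/TAZ#2 and 0.871 to 1.16 with siCo. TFAM was chosen for its movement, so this separation is no result, and TFB2M was itself lower in CPM with both combinations. The transcript length by which TPM divides does not cancel. For TFAM it averaged 1693 bases with siYAP/TAZ#1, 1550 bases with siYAP/TAZ#2 and 1510 bases with siCo. Per 1000 TPM of the 13 mitochondrial mRNAs, TFAM stood at 0.599 ± 0.0536 TPM with siYAP/TAZ#1, 2.47 ± 0.496 TPM with siYAP/TAZ#2 and 1.38 ± 0.184 TPM with siCo.

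**Figure D3:**
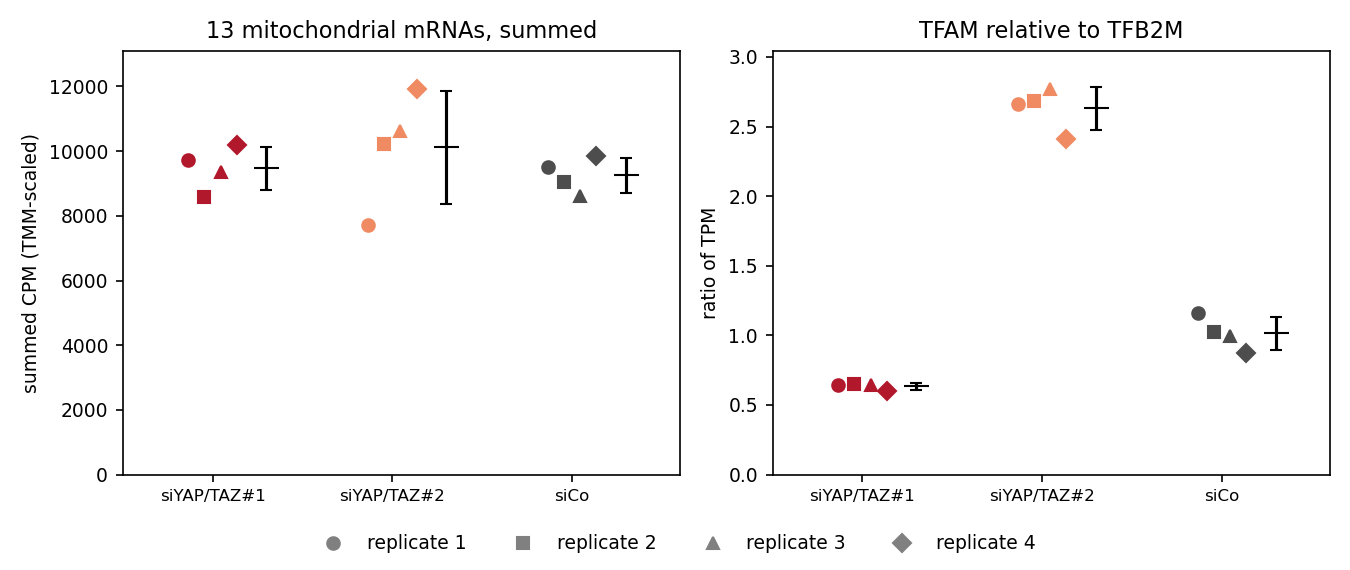
Left, the summed CPM of the 13 mitochondrial mRNAs and, right, the ratio of TFAM TPM to TFB2M TPM (y axes, from 0), 1 point per library, with the mean and SD beside the points. The sums overlap between groups, while the ratio falls in 3 separate ranges.

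The 7 mitochondrial mRNAs outside the chosen set (MT-ND2, MT-ND3, MT-ND4, MT-ND4L, MT-ND6, MT-CO3 and MT-ATP8) could be tested. With edgeR, 0 of 7 were called in each of the 3 comparisons, and so it was with DESeq2. At an unadjusted p under 0.05, 2 passed with siYAP/TAZ#1 against siCo, 0 with siYAP/TAZ#2 against siCo and 0 between the combinations. Their median log2 change was 0.14 with siYAP/TAZ#1 and 0.25 with siYAP/TAZ#2, beside 0.02 over all genes tested in either comparison. This median stayed above that of all genes in every alternative, by 0.07 to 0.29 with siYAP/TAZ#1 and by 0.12 to 0.42 with siYAP/TAZ#2. The count of 0 depended on the processing, and every call it then gave was higher than siCo. With library size alone, 2 of the 7 were called with siYAP/TAZ#1 and 3 with siYAP/TAZ#2. Of all 21581 genes, that scaling called 5876 higher with siYAP/TAZ#1 and 6538 with siYAP/TAZ#2. Without a filter on low counts, 2 were called with siYAP/TAZ#1 and 1 with siYAP/TAZ#2. Of all 43210 genes then tested, 3682 were called higher with siYAP/TAZ#1 and 4126 with siYAP/TAZ#2. The replicate block with a GC content offset gave 1 with siYAP/TAZ#1 and 4 with siYAP/TAZ#2. Of all 21581 genes, it called 4320 higher with siYAP/TAZ#1 and 4669 with siYAP/TAZ#2. Left out singly, siYAP/TAZ#1 replicates 2 and 4 and siCo replicate 2 each gave 1 call with siYAP/TAZ#1. Over all genes, those fits called 3147 to 3167 higher with siYAP/TAZ#1. Without siYAP/TAZ#2 replicate 1, 3 of the 7 were called higher with siYAP/TAZ#2: MT-CO3 (0.39, edgeR adjusted p = 0.0020), MT-ND4 (0.38, edgeR adjusted p = 0.00846) and MT-ND3 (0.49, edgeR adjusted p = 0.0374). MT-ND3 was then also called higher with siYAP/TAZ#1 (0.45, edgeR adjusted p = 0.0406). In that fit, 4224 of all 22166 genes were called higher with siYAP/TAZ#1 and 4614 with siYAP/TAZ#2.

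MT-ND6 is the only protein gene transcribed from the other strand (chromosome M, 14149 to 14673, minus strand). Its estimated counts per 100 counts of the 6 other mRNAs outside the chosen set were 1.51 ± 0.327 with siYAP/TAZ#1, 1.41 ± 0.580 with siYAP/TAZ#2 and 1.497 ± 0.281 with siCo. The two-sided exact permutation test (n = 4 against 4, smallest possible p = 0.0286) gave p = 1 with siYAP/TAZ#1 and p = 0.657 with siYAP/TAZ#2 against siCo. Of the mitochondrial rRNAs and tRNAs, 4 of 24 passed the filter and 0 were called by edgeR or DESeq2 in any comparison, with 0 at an unadjusted p under 0.05. In edgeR with library size alone, and with only the 2 groups compared, 1 was called higher with siYAP/TAZ#1. Of all genes, 5876 of 21581 were called higher in the former and 4390 of 20515 in the latter. MT-RNR2 averaged 72.9 ± 8.92 CPM with siYAP/TAZ#1, 67.2 ± 12.7 CPM with siYAP/TAZ#2 and 65.4 ± 3.41 CPM with siCo. These rRNA levels lay far below that of MT-CO1, and the sources used here do not give how ribosomal RNA was handled.

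Copies of mitochondrial genes lie in the nuclear genome, and MT-CO1 shares 66.7% of its 31-base words with other genes, MT-ATP6 63.7%, MT-CO2 50.5%, MT-ND1 28.2%, MT-ND5 15.1% and MT-CYB 4.95%. Reads could be split between such copies. Of 10 listed nuclear copies, 3 were tested and 0 were called by edgeR or DESeq2 in any comparison, with 0 at an unadjusted p under 0.05. Without siYAP/TAZ#2 replicate 1, edgeR called 1 higher with siYAP/TAZ#2 and 2 lower in siYAP/TAZ#1 than in siYAP/TAZ#2. Of all 22166 genes, that fit called 4614 higher with siYAP/TAZ#2 and 2840 lower in siYAP/TAZ#1 than in siYAP/TAZ#2. With only the 2 groups compared, 1 was called lower with siYAP/TAZ#1, beside 4535 of all 20515 genes. MTCO1P12, the copy nearest to MT-CO1, averaged 8.89 ± 0.914 CPM with siYAP/TAZ#1, 10.7 ± 2.41 CPM with siYAP/TAZ#2 and 10.7 ± 0.914 CPM with siCo, a small share of the level of MT-CO1. MT-ATP6 also overlaps MT-ATP8 by 46 bases (8527 to 8572), where reads fit both.

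The genes whose log2 CPM followed TFAM most closely over the 12 libraries were sought among 11643 genes with a mean of at least 5 CPM, by the smallest root mean square difference. They were G3BP2 (0.244), RBPJ (0.280), C9orf64 (0.285), RAB8B (0.287), C1GALT1 (0.327), CASD1 (0.330), POGLUT3 (0.361) and SVIP (0.369), the values being that difference in log2 units. G3BP2, a stress granule protein, averaged 41.7 ± 2.78 CPM with siYAP/TAZ#1, 125 ± 19.3 CPM with siYAP/TAZ#2 and 87.6 ± 6.03 CPM with siCo. RBPJ, the DNA-binding factor of Notch signalling, averaged 12.8 ± 1.42 CPM with siYAP/TAZ#1, 33.99 ± 4.80 CPM with siYAP/TAZ#2 and 18.9 ± 1.21 CPM with siCo. Against siCo, all 8 lay lower with siYAP/TAZ#1 (-1.24 to -0.57) and higher with siYAP/TAZ#2 (0.15 to 0.84), and none reached the rise of TFAM with siYAP/TAZ#2. Being chosen for likeness, they were not tested.

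The 4 genes around TFAM on chromosome 10 did not share its pattern of opposite calls, which 0.690% of all genes tested showed. At so low a share, nothing is read from its absence in 4 genes. IPMK, an inositol phosphate kinase, fell with siYAP/TAZ#1 (-0.32 ± 0.077, edgeR adjusted p = 0.00411) and with siYAP/TAZ#2 (-0.57 ± 0.078, edgeR adjusted p = 2.31e-05). BICC1, an RNA-binding protein, fell with siYAP/TAZ#1 (-0.34 ± 0.062, edgeR adjusted p = 0.000375) and changed by -0.04 ± 0.062 with siYAP/TAZ#2 (edgeR adjusted p = 0.704). UBE2D1, a ubiquitin-conjugating enzyme, rose with siYAP/TAZ#2 (0.37 ± 0.0997, edgeR adjusted p = 0.00751). With siYAP/TAZ#1 its change was 0.30 ± 0.0995 (edgeR adjusted p = 0.0264), which was not called in 6 of the 12 fits that left out 1 library. CISD1, an outer mitochondrial membrane iron-sulphur protein, was not called, at -0.09 ± 0.105 with siYAP/TAZ#1 and -0.25 ± 0.106 with siYAP/TAZ#2. In log2(TPM + 1) without further scaling, IPMK and BICC1 lay above siCo with siYAP/TAZ#1, by 0.03 and 0.04. The median of all genes was then 0.19.

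Beyond the chosen genes, 177 nuclear genes in 7 lists cover the rest of the mitochondrial gene expression system, protein import and the respiratory chain, and 176 were tested. With siYAP/TAZ#1 59 fell and 6 rose, and with siYAP/TAZ#2 63 fell and 8 rose. The calls thus made up 36.9% of the genes tested with siYAP/TAZ#1 and 40.3% with siYAP/TAZ#2, beside 34.9% of all genes with siYAP/TAZ#1 (3999 lower, 3531 higher) and 38.2% with siYAP/TAZ#2 (4144 lower, 4100 higher). Both comparisons share the siCo libraries, so their counts are not independent. Scaling bears on the split: with library size alone, where the median of all genes itself shifts to 0.20 with siYAP/TAZ#1 and 0.21 with siYAP/TAZ#2, 31 fell and 26 rose with siYAP/TAZ#1 and 31 fell and 19 rose with siYAP/TAZ#2. Over all genes that scaling gave 1905 lower and 5876 higher with siYAP/TAZ#1 and 2037 lower and 6538 higher with siYAP/TAZ#2. In log2(TPM + 1), 1 list gene fell and 1 rose with siYAP/TAZ#1, and 2 fell and 5 rose with siYAP/TAZ#2.

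Protein import, the translocases and chaperones that bring nuclear-encoded proteins into mitochondria, held calls in 1 direction. Of 28 genes, 19 fell and 0 rose with siYAP/TAZ#1, and 19 fell and 0 rose with siYAP/TAZ#2. The median was -0.34 with siYAP/TAZ#1 and -0.37 with siYAP/TAZ#2, and with library size alone 11 fell and 0 rose with siYAP/TAZ#1 and 10 fell and 0 rose with siYAP/TAZ#2. In log2(TPM + 1) 1 fell with each combination and the median was 0.02 with siYAP/TAZ#1 and 0.05 with siYAP/TAZ#2, and in log2(TPM + 0.1) 1 fell with siYAP/TAZ#1 and 0 with siYAP/TAZ#2. The list median stayed below that of all genes in every alternative, by 0.17 to 0.38 with siYAP/TAZ#1 and by 0.19 to 0.42 with siYAP/TAZ#2. TOMM70, an outer membrane receptor, fell with siYAP/TAZ#1 (46.6 ± 0.599 CPM, log2 -0.88 ± 0.068) and with siYAP/TAZ#2 (60.6 ± 6.18 CPM, log2 -0.50 ± 0.068), against 85.4 ± 3.63 CPM with siCo. The edgeR adjusted p was 6.5e-08 with siYAP/TAZ#1 and 2.33e-05 with siYAP/TAZ#2.

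Some import genes answered unequally to the combinations. TIMM17A, a channel subunit of the inner membrane, averaged 12.7 ± 1.63 CPM with siYAP/TAZ#1, 27.1 ± 3.45 CPM with siYAP/TAZ#2 and 32.3 ± 0.702 CPM with siCo. It fell with siYAP/TAZ#1 (-1.35 ± 0.0998, edgeR adjusted p = 3.56e-08) and was lower with siYAP/TAZ#1 than with siYAP/TAZ#2 (-1.10 ± 0.0997, edgeR adjusted p = 7.61e-07). Its change with siYAP/TAZ#2 was -0.26 ± 0.096 (edgeR adjusted p = 0.0464), which was not called in 8 of the 12 fits that left out 1 library. TOMM20, another outer membrane receptor, differed the opposite way, at 102 ± 5.04 CPM with siYAP/TAZ#1, 55.9 ± 8.16 CPM with siYAP/TAZ#2 and 124 ± 6.53 CPM with siCo. It fell with siYAP/TAZ#2 (-1.15 ± 0.088, edgeR adjusted p = 4.34e-08) and was higher with siYAP/TAZ#1 than with siYAP/TAZ#2 (0.87 ± 0.088, edgeR adjusted p = 2.46e-06). Its change with siYAP/TAZ#1 was -0.28 ± 0.087 (edgeR adjusted p = 0.0188), which was not called in 3 of those 12 fits.

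The enzymes and binding proteins that cut, modify and degrade mitochondrial RNA also held mostly lower calls. Of 24 genes, 12 fell and 0 rose with siYAP/TAZ#1, and 11 fell and 0 rose with siYAP/TAZ#2, and with library size alone 8 fell and 1 rose with siYAP/TAZ#1 and 6 fell and 1 rose with siYAP/TAZ#2. ELAC2, the nuclease that cuts the 3′ ends of tRNAs, fell with siYAP/TAZ#1 (-0.49 ± 0.057, edgeR adjusted p = 5.88e-06) and with siYAP/TAZ#2 (-0.44 ± 0.057, edgeR adjusted p = 1.32e-05). NGRN, a factor of mitochondrial ribosome assembly, averaged 137 ± 2.05 CPM with siYAP/TAZ#1, 72.0 ± 2.26 CPM with siYAP/TAZ#2 and 177 ± 4.74 CPM with siCo. It was higher with siYAP/TAZ#1 than with siYAP/TAZ#2 (0.93 ± 0.049, edgeR adjusted p = 1.52e-09). PDE12, a mitochondrial deadenylase, averaged 43.3 ± 2.22 CPM with siYAP/TAZ#1, 21.9 ± 1.72 CPM with siYAP/TAZ#2 and 46.6 ± 1.40 CPM with siCo. It fell with siYAP/TAZ#2 (-1.09 ± 0.066, edgeR adjusted p = 3.31e-09) and changed by -0.10 ± 0.064 with siYAP/TAZ#1 (edgeR adjusted p = 0.240).

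Replication and packaging of mitochondrial DNA held 17 genes, of which 7 fell and 0 rose with siYAP/TAZ#1 and 8 fell and 2 rose with siYAP/TAZ#2. Scaled by library size alone, 3 fell and 1 rose with siYAP/TAZ#1, and 5 fell and 2 rose with siYAP/TAZ#2. RNASEH1, which removes RNA primers, fell with siYAP/TAZ#1 (-0.41 ± 0.056, edgeR adjusted p = 2.83e-05) and with siYAP/TAZ#2 (-0.53 ± 0.056, edgeR adjusted p = 1.59e-06). LIG3, the mitochondrial DNA ligase, fell with siYAP/TAZ#1 (-0.46 ± 0.048, edgeR adjusted p = 1.4e-06) and less with siYAP/TAZ#2 (-0.18 ± 0.047, edgeR adjusted p = 0.00683), and the combinations differed (-0.28 ± 0.048, edgeR adjusted p = 0.000494). Under that scaling LIG3 with siYAP/TAZ#2 lay at 0.01.

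Among 8 other transcription genes, 1 fell and 0 rose with siYAP/TAZ#1, and 1 fell and 1 rose with siYAP/TAZ#2. The gene that fell was MRPL12, a ribosomal protein reported to bind POLRMT, at 148 ± 17.0 CPM with siYAP/TAZ#1, 146 ± 31.7 CPM with siYAP/TAZ#2 and 219 ± 20.7 CPM with siCo. Its log2 change was -0.56 ± 0.121 with siYAP/TAZ#1 (edgeR adjusted p = 0.00170) and -0.58 ± 0.121 with siYAP/TAZ#2 (edgeR adjusted p = 0.00117). Under scaling by library size alone, 1 fell and 2 rose with either combination. MTERF2, a mitochondrial transcription termination factor family protein, was the one that rose, with siYAP/TAZ#2 (0.31 ± 0.110, edgeR adjusted p = 0.0374), which was not called in 5 of the 12 fits that left out 1 library. TFB1M, the rRNA methyltransferase related to TFB2M, was not called, at -0.05 ± 0.135 with siYAP/TAZ#1 and -0.30 ± 0.137 with siYAP/TAZ#2.

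Nuclear regulators of mitochondrial biogenesis were tested at 15 of 16 genes, of which 9 fell and 2 rose with siYAP/TAZ#1 and 9 fell and 1 rose with siYAP/TAZ#2. With library size alone 4 fell and 2 rose with siYAP/TAZ#1, and 5 fell and 1 rose with siYAP/TAZ#2. PPRC1, a coactivator of the PGC-1 family, fell with siYAP/TAZ#1 (162 ± 3.95 CPM, log2 -0.66 ± 0.053) and with siYAP/TAZ#2 (158 ± 9.41 CPM, log2 -0.70 ± 0.053), against 257 ± 2.51 CPM with siCo. The edgeR adjusted p was 8.21e-08 with siYAP/TAZ#1 and 3.61e-08 with siYAP/TAZ#2. PPARGC1A, which encodes PGC-1α and was named after its values were seen, rose with siYAP/TAZ#1 (1.53 ± 0.306, edgeR adjusted p = 0.000902) and with siYAP/TAZ#2 (1.48 ± 0.308, edgeR adjusted p = 0.00107). NRF1, known to activate the TFAM promoter, was not called, at -0.15 ± 0.073 with siYAP/TAZ#1 and -0.15 ± 0.074 with siYAP/TAZ#2, and was likewise named after its values were seen.

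The 2 catalytic subunits of the energy sensor AMPK differed between the combinations in opposite ways. PRKAA1 averaged 36.5 ± 0.835 CPM with siYAP/TAZ#1, 58.6 ± 9.61 CPM with siYAP/TAZ#2 and 61.1 ± 2.49 CPM with siCo, and was lower with siYAP/TAZ#1 than with siYAP/TAZ#2 (-0.68 ± 0.093, edgeR adjusted p = 6.25e-05). PRKAA2 averaged 31.7 ± 1.73 CPM with siYAP/TAZ#1, 13.3 ± 2.51 CPM with siYAP/TAZ#2 and 21.2 ± 2.34 CPM with siCo. It rose with siYAP/TAZ#1 (0.58 ± 0.113, edgeR adjusted p = 0.000701) and fell with siYAP/TAZ#2 (-0.67 ± 0.117, edgeR adjusted p = 0.000245), the converse of TFAM.

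Of 12 genes of mitochondrial nucleotide supply, 3 fell and 3 rose with siYAP/TAZ#1, and 3 fell and 3 rose with siYAP/TAZ#2. By library size alone, 2 fell and 4 rose with siYAP/TAZ#1, and 1 fell and 5 rose with siYAP/TAZ#2. TK2, the mitochondrial thymidine kinase, rose with siYAP/TAZ#1 (0.36 ± 0.062, edgeR adjusted p = 0.000272) and with siYAP/TAZ#2 (0.31 ± 0.062, edgeR adjusted p = 0.000945). SLC25A33, a pyrimidine nucleotide carrier, fell with siYAP/TAZ#1 (-0.49 ± 0.089, edgeR adjusted p = 0.000385) and with siYAP/TAZ#2 (-0.50 ± 0.0895, edgeR adjusted p = 0.000315).

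The nuclear partners of the mitochondrial mRNAs in the respiratory chain and ATP synthase made up the longest list. Of 72 genes, 8 fell and 1 rose with siYAP/TAZ#1 (12.5%, beside 34.9% of all genes), and 12 fell and 1 rose with siYAP/TAZ#2 (18.1%, beside 38.2% of all genes). With library size alone 2 fell and 16 rose with siYAP/TAZ#1 and 3 fell and 8 rose with siYAP/TAZ#2, so the direction of the calls rests on scaling. After TMM scaling the list median was -0.01 with siYAP/TAZ#1 and -0.05 with siYAP/TAZ#2. With either scaling it lay below that of all genes, by 0.03 with siYAP/TAZ#1 and 0.07 with siYAP/TAZ#2. In log2(TPM + 1) it lay above that of all genes, by 0.13 with each combination. NDUFB5, a complex I subunit, stood out, at 8.75 ± 0.554 CPM with siYAP/TAZ#1, 16.7 ± 2.35 CPM with siYAP/TAZ#2 and 15.5 ± 1.80 CPM with siCo. It fell with siYAP/TAZ#1 (-0.82 ± 0.110, edgeR adjusted p = 2.06e-05) and was lower with siYAP/TAZ#1 than with siYAP/TAZ#2 (-0.93 ± 0.109, edgeR adjusted p = 1.23e-05). ATP5PO, an ATP synthase stalk subunit, fell with siYAP/TAZ#2 (-0.45 ± 0.079, edgeR adjusted p = 0.000235) and changed by 0.05 ± 0.078 with siYAP/TAZ#1 (edgeR adjusted p = 0.652).

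**Figure D4:**
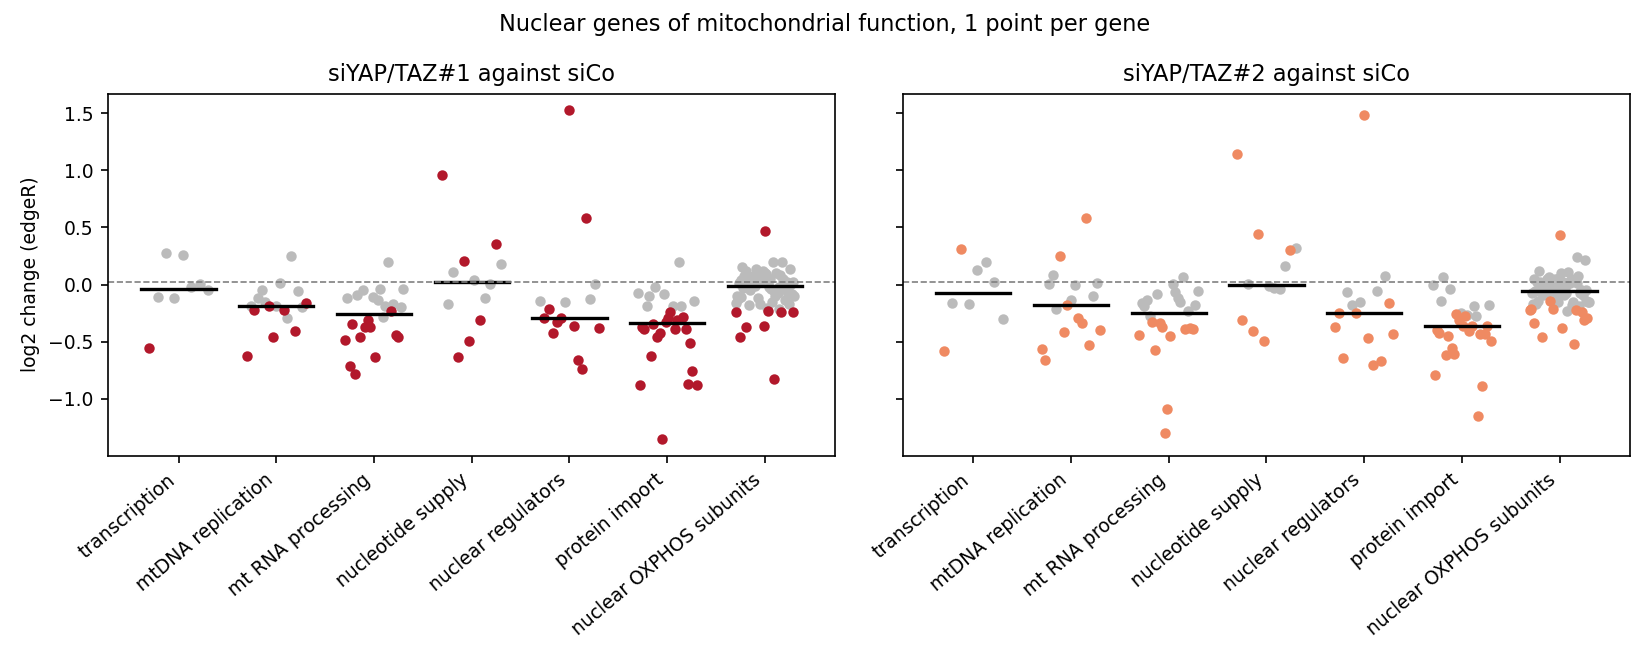
Log2 change from edgeR (y axis) of the genes tested in the 7 nuclear lists (x axis), 1 point per gene, with siYAP/TAZ#1 against siCo on the left and siYAP/TAZ#2 against siCo on the right. Coloured points were called at an adjusted p under 0.05, grey points were not, black bars are list medians and the dashed line is the median of all genes tested. The bars for import and RNA processing lie below the dashed line in both panels, and that for respiratory chain subunits lies near it.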

How the data were processed

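RNA was sequenced from 12 A549 libraries, grouped by their titles into siYAP/TAZ#1, siYAP/TAZ#2 and siCo with 4 libraries each, which the series calls biological replicates. P-values measure only the spread between these samples, which may be technical. Per the labels' protocols, RNA needed an integrity number above 7, and libraries were made for the BGISEQ-500. The authors deposited estimated counts and TPM per gene, 2 tables per library. As tools and genome, kallisto 0.4.6, Trim Galore 0.6.4 and GRCh38.p13 appear in the submitters' processing notes. The sources used here do not give strandedness, removal of ribosomal RNA or how transcripts were summed to genes.

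Estimated counts were rounded and tested with edgeR 4.0.16 (R 4.3.3): TMM scaling, filterByExpr, group as the only term over 12 libraries, quasi-likelihood F test, Benjamini-Hochberg adjustment over 21581 genes, called under 0.05. Standard errors come from the F statistic. DESeq2 1.42.0 and limma 3.58.1 on log2(TPM + 1) and log2(TPM + 0.1) were alternatives, beside other scalings, filters, offsets for GC content and gene length, and each library left out. Each step was tested on simulated data. The deposited TPM served for levels between genes and for ratios. Shared sequence was counted as 31-base words of GENCODE v29 transcripts.

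Members and lists were chosen with earlier results of these data known. Genes named are the members, the other mitochondrial mRNAs and rRNAs, all TFAM neighbours, the 8 genes most like TFAM, YAP1 and WWTR1. From each other list came up to 6 genes: 4 by the lower adjusted p against siCo and 2 by adjusted p between the combinations. The choice of which of them to print was made with their values known. The total of estimated counts limits the precision of low genes, and errors cover the spread between libraries.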

Additional observations from a re-analysis of the deposited data

Results flagged for a closer look

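In 207 groups of 4 libraries (69 named genes in 3 groups), Dixon's test at the 95% level singled out a library in 10 of the groups, and chance singles out about 1 group in 20. Among the members, POLRMT stood at 221 CPM in siYAP/TAZ#2 replicate 1, with 139 to 153 CPM in the other libraries of that group. MRPL12, reported to bind POLRMT, was highest in the same library, at 193 CPM with 127 to 137 CPM in the others. A pair of mitochondrial mRNAs was singled out: MT-ND4 at 329 CPM in siYAP/TAZ#1 replicate 2, with 416 to 433 CPM in the others, and MT-ND3 at 11.8 CPM in siCo replicate 4, with 8.60 to 8.78 CPM in the others. The other 6 lay close to their groups: TOMM70 at 45.7 CPM in siYAP/TAZ#1 replicate 1, CISD1 at 9.75 CPM in siYAP/TAZ#1 replicate 3, NGRN at 184 CPM in siCo replicate 1, NDUFAB1 at 30.4 CPM in siCo replicate 3, BICC1 at 237 CPM in siCo replicate 4 and CASD1 at 18.9 CPM in siCo replicate 2.

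PRKAA2 was called in opposite directions against siCo, and its direct difference, siYAP/TAZ#1 over siYAP/TAZ#2, was 1.25 (edgeR adjusted p = 9.31e-07), higher in 4 of 4 siYAP/TAZ#1 libraries.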

How the results depend on the processing

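TFAM kept its direction under all alternatives, but its size moved with scaling: -0.81 with library size alone, -0.66 with log2(TPM + 1) and -0.76 with log2(TPM + 0.1) for siYAP/TAZ#1, and 1.19, 1.29 and 1.39 under the same settings for siYAP/TAZ#2. Between the combinations it was -2.15 with log2(TPM + 0.1). The summed mitochondrial mRNAs moved to 0.21 (library size alone) and 0.42 (TPM) with siYAP/TAZ#1, and to 0.30 (library size alone) and 0.58 (TPM) with siYAP/TAZ#2. Leaving out 1 library gave sums from -0.00788 to 0.0766 with siYAP/TAZ#1 and from 0.03 to 0.24 with siYAP/TAZ#2. Values in TPM were not scaled further, and the median of all genes then shifted to 0.19 or 0.33 with siYAP/TAZ#1 and 0.24 or 0.40 with siYAP/TAZ#2 (pseudocounts of 1 and 0.1). With library size alone that median was 0.20 with siYAP/TAZ#1 and 0.21 with siYAP/TAZ#2.

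Genes called fell to 1892 and 2309 with siYAP/TAZ#1, 3717 and 4067 with siYAP/TAZ#2, and 117 and 118 between the combinations (pseudocounts of 1 and 0.1). Between the combinations, a GC content offset gave 4981 calls and leaving out 1 library 2541 to 5127, the highest without siYAP/TAZ#2 replicate 1. Among the nuclear lists, scaling by library size alone gave 31 lower and 26 higher for siYAP/TAZ#1, and TPM gave 1 lower and 1 higher at either pseudocount. More were called higher with siYAP/TAZ#1 under a GC content offset (13), a gene length offset (10), and only the 2 groups compared (12), and leaving out 1 library gave 6 to 10. For siYAP/TAZ#2 the counts were 31 lower and 19 higher by library size, 2 lower and 5 higher with log2(TPM + 1), 2 lower and 6 higher with log2(TPM + 0.1), and 6 to 14 higher with each library left out. Between the combinations, 11 to 28 were lower and 7 to 19 higher with each library left out, 21 higher with a GC content offset, and 1 lower and 0 higher in TPM at either pseudocount. The cause was not tested.

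Signs turned in TPM, given for pseudocounts of 1 and 0.1. With siYAP/TAZ#1 these were LIG3 (0.0198, 0.0204), TOP3A (0.13, 0.14), FEN1 (0.17, 0.18), NGRN (0.00604, 0.00623), SUCLA2 (0.15, 0.16), GABPA (0.0237, 0.0337), PPARGC1B (0.10, 0.12), TOMM20 (0.0365, 0.0374), NDUFAB1 (0.12, 0.12), IPMK (0.0306, 0.0477) and BICC1 (0.0446, 0.0458). With siYAP/TAZ#2 they were LIG3 (0.30, 0.31), TOP3A (0.0954, 0.0992), FEN1 (0.0285, 0.0291), RRM2B (0.34, 0.39), PPARGC1B (0.0142, 0.018), TIMM17A (0.15, 0.16), TOMM6 (0.0685, 0.069), NDUFAB1 (0.0501, 0.051), ATP5MC1 (0.075, 0.0752) and NDUFS1 (0.0200, 0.0183). With library size alone TOP3A with siYAP/TAZ#1 (0.0144) and LIG3 with siYAP/TAZ#2 (0.00966) turned. Of the named genes outside the members, 6 of 30 calls with siYAP/TAZ#1, 4 of 31 with siYAP/TAZ#2 and 3 of 19 between the combinations were lost when some 1 library was left out.

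Whether replicate numbers pair the libraries is not settled: 6 of 12 same-numbered pairs had a correlation over 0.1, and 6 of 12 libraries were closest to their own number. Pairs of replicate 4 stood at 0.51 to 0.60, and the other same-numbered pairs ran from -0.50 to 0.26. The replicate block is therefore given as an alternative only. With the replicate block, 7621 genes were called with siYAP/TAZ#1, 8266 with siYAP/TAZ#2 and 3266 between the combinations. With the block and a GC content offset together, 4951 were called between the combinations, 15 nuclear list genes were higher with siYAP/TAZ#1 and 21 between the combinations. Depth limits the low genes: TFAM rested on 337 to 1718 counts per library and MT-RNR1 averaged under 2 CPM.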

Other observations

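The mean effective length of TFAM transcripts, derived from the ratio of estimated counts to TPM and added after seeing the data, was 1693 ± 74.2 bases with siYAP/TAZ#1, 1550 ± 146 bases with siYAP/TAZ#2 and 1510 ± 65.2 bases with siCo (n = 4 each). It reflects which transcripts of the gene the reads were assigned to. By library it ran from 1612 to 1768 bases with siYAP/TAZ#1, from 1368 to 1723 bases with siYAP/TAZ#2 and from 1447 to 1598 bases with siCo. As TFAM is a member, these lengths are a description, and no difference between groups is read from them.

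TFB2M, with 1 transcript in GENCODE v29, gave 1543 ± 1.15 bases with siYAP/TAZ#1, 1539 ± 6.29 bases with siYAP/TAZ#2 and 1536 ± 5.85 bases with siCo by the same measure.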
